A study of Mus musculus with 22 samples.

Results

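E2F3a belongs to the E2F transcription factors, a family whose members bind DNA together with a DP partner and are best known for switching on genes of DNA replication and cell division once the retinoblastoma protein releases them. Most cells of the adult nucleus accumbens, a ventral striatal region central to reward, no longer divide, and E2F proteins in such neurons are studied as regulators of other genes. In CUT&RUN an antibody tethers a nuclease to chromatin, and the DNA cut loose around the bound protein is sequenced, so the reads at a site report how much antibody-targeted protein was near that DNA. A promoter is the stretch around a gene's transcription start where the transcription machinery assembles, and many mouse promoters are rich in the dinucleotide CpG.

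The regions described here are 285 promoter sites, assigned to 280 genes, out of 956 sites that the authors' deposited table lists as differing in E2F3a signal between cocaine and saline. A site was taken when its annotation placed it at a promoter, which in the table reaches 3 kb from a transcription start. Of 331 such sites, 46 were left out because they sat in runs of 5 or more listed sites joined by gaps below 100 kb, and none of those 46 was lower after cocaine. The mice were wild-type C57BL/6J females and males, given intraperitoneal saline or cocaine at 20 mg/kg on 7 consecutive days in the home cage before the brain was collected. Nuclei came from frozen bilateral punches of the nucleus accumbens and were divided between the E2F3a antibody and a control IgG antibody. The labels name 7 cocaine libraries (2 female, 5 male) and 4 saline libraries (2 female, 2 male) with the E2F3a antibody. The table holds 6 cocaine and 4 saline values per site without library names, so the sex of a value, and which cocaine library has none, are not known here. How the IgG libraries entered the table is not stated in what was used here. A punch mixes neurons and glia. A count at a site therefore does not separate how many cells hold the protein there, how much each holds, and background signal.

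Because the authors listed the sites for differing between these same libraries, the cocaine and saline values below are a description and the difference itself was not tested again as evidence. Values are the authors' normalized counts per library. The numbers 1 to 6 (cocaine) and 1 to 4 (saline) give only the order of the values in the table. The log2 ratio compares the cocaine mean with the saline mean after adding 1 to each. Each normalized count was a whole multiple of a step, between 0.641 and 2.21 in cocaine libraries and between 0.384 and 1.88 in saline libraries, which is what 1 read was worth. The median site among the 285 therefore rested on 7 to 24 reads in a cocaine library and 16 to 58 in a saline library. Most of the 285 sites were listed for lower counts with cocaine, so these medians do not reflect depth alone. The steps of the 2 groups overlapped. Over all 956 listed sites, reads ran from 46536 to 102633 in cocaine libraries and from 41437 to 153637 in saline libraries. Depth thus differed between libraries, and its part in the results was not tested. Cocaine libraries 5 and 6 stood apart from the other 4 at sites that were higher after cocaine, and values are therefore also given without them. Nothing says how the animals were pooled, so the spread between libraries may be partly technical.

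Promoter sites were mostly lower after cocaine. Of the 285, 223 (78.2%, 95% exact interval 73.0 to 82.9%) were lower and 62 were higher. In the authors' deposited table the adjusted p was below 0.05 at 221 of the 223 lower and at all 62 higher sites. The exceptions were H2ac25 and Asf1b, at adjusted p of 0.21 and 0.22 in the authors' deposited table. The same call held at 474 of all 480 listed lower and 473 of all 476 listed higher sites (49.6% and 49.5% of all 956). Nearly all listed sites thus passed it, at promoters or not. Outside runs, 152 of 239 gene body sites (63.6%, interval 57.2 to 69.7%) and 105 of 231 distal intergenic sites (45.5%, interval 38.9 to 52.1%) were lower. Within promoters the share was smaller farther from the start, going from 81.4% (193 of 237 sites) within 1 kb to 73.3% (22 of 30) at 1 to 2 kb and 44.4% (8 of 18, interval 21.5 to 69.2%) at 2 to 3 kb. The intervals cover counting error alone, sites are not independent replicates, and the difference between these shares was not tested.

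**Figure D1:**
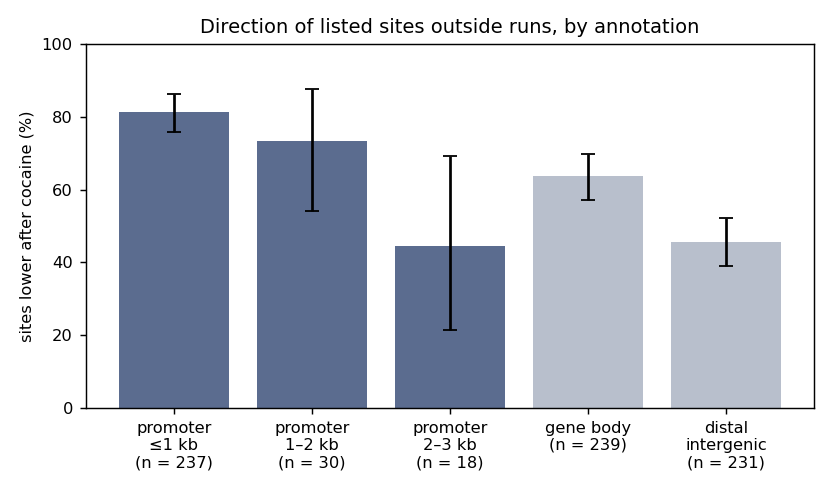
Share of listed sites outside runs that were lower after cocaine (%, y axis) for promoter sites by distance from the start (dark bars) and for gene body and distal intergenic sites (pale bars), with exact 95% intervals and the number of sites under each bar. The bar for promoters within 1 kb stands at 81.4% and that for distal intergenic sites at 45.5%.

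Sites in both directions lay on either side of the 3 kb limit. The outermost promoter sites were at Ap3b2 and Plxna4, with log2 ratios of 1.12 and 0.86, and Pnldc1, at -0.60. The first sites beyond it, counted as gene body, were nearest Zfp667 (-1.11), H2bc4 (-1.25) and Gnai2 (1.25). At the limit on runs, 5 sites lay in groups of 4 and were kept, 3 at the Dux locus and 2 at Bcl11a, while sites nearest Fcgr3 and Gm13238, in runs of 5, were not.

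Sequence was not used to list the sites. A RefSeq table (GRCm38.p6) gives a window from 250 bases before to 50 bases after the start of each gene, and 124 of the 285 sites overlapped such a window. For 14 of them the only window belonged to a gene other than the annotated one, and 20 overlapped windows of several genes. The windows were CpG-rich in both directions. The median ratio of observed to expected CpG was 0.81 over 100 windows at lower sites and 0.78 over 24 at higher sites, against 0.57 over 21263 windows of protein-coding genes. The E2F motif was searched on both strands as TTTCCCGC, TTTCGCGC, TTTGCCGC or TTTGGCGC. It was present in 4 of the 100 windows at lower sites (4%, interval 1.10 to 9.93%) and in 0 of the 24 at higher sites (upper bound 14.2%). Among protein-coding windows 2.85% held it, and among those with a CpG ratio of at least 0.6 the share was 4.95%, both inside the interval of the lower sites. A shorter core, the same letters without the first T, was in 18% of windows at lower and 16.7% at higher sites, against 12.1% of protein-coding windows and 20.8% of the CpG-rich ones. A match is a description of letters and not a binding site.

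The 4 windows with the full motif were those of Cdc6, Hspbp1, Fasn and Dnajb9, the last under a site annotated to Mir5627. At Fasn and Dnajb9 the motif fell outside the listed site itself. The 250 bases before the start are shown for Cdc6 and Hspbp1, the lower promoters whose site contains the motif (in capitals), and for Senp7 and Pias1, higher promoters whose site contains the shorter core alone (in capitals). Hspbp1 was chosen after its values were seen. The stretches are chr11:98907901-98908150 on the plus strand (Cdc6), chr7:4684982-4685231 on the minus strand (Hspbp1), chr16:56075230-56075479 on the plus strand (Senp7) and chr9:62980880-62981129 on the minus strand (Pias1).
Cdc6: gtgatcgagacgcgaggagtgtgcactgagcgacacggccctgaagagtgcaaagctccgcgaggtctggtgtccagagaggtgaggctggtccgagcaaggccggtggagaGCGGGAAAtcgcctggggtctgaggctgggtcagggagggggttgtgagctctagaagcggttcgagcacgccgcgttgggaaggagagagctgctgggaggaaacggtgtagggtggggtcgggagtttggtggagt
Hspbp1: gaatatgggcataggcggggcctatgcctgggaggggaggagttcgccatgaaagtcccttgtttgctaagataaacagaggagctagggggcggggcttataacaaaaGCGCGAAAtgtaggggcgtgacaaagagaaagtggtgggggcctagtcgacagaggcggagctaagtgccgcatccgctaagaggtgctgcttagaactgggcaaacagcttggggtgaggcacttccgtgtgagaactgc
Senp7: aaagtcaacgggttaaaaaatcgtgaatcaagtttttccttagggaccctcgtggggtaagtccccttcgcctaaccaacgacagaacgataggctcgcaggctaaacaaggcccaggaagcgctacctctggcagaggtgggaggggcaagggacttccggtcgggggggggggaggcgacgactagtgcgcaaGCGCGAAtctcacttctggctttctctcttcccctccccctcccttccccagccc
Pias1: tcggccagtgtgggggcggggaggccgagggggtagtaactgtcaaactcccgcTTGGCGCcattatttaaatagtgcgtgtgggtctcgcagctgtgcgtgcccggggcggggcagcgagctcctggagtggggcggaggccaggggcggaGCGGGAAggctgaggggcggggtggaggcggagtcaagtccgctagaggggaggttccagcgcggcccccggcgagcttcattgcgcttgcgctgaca
The motif began 138 bases before the start at Cdc6 and 141 bases before it at Hspbp1. Cdc6, which loads the replicative helicase onto origins, is a textbook E2F target. It was the only gene here from a list of E2F, RB, cell cycle and replication genes. That was 0.943% of the list, near the 0.89% of all protein-coding genes with a lower promoter site. The difference was not tested, and Cdc6 is not read as a sign that genes of this list were favoured. The Cdc6 site (chr11:98907202-98908200, within 1 kb of the start and covering it) stood at 35.9, 29.9, 27.6 and 30.1 in the saline libraries. It ran from 4.43 to 29.1 with a median of 16.2 in the cocaine libraries. Those groups overlapped, since cocaine library 2 reached into the saline range, and the log2 ratio was -0.84 (-0.58 without cocaine libraries 5 and 6). Hspbp1, a nucleotide exchange cofactor of heat shock protein 70, had 103, 111, 106.3 and 99.6 in saline libraries and ran from 37.6 to 112 with a median of 79.3 in cocaine libraries, a log2 ratio of -0.47 with overlapping groups. Other motifs were searched in the same way on both strands, and may overlap each other. The CCAAT box, searched as those letters, was in 51% of windows at lower sites (interval 40.8 to 61.1%) and 29.2% at higher sites. It was in 36.5% of CpG-rich and 38.2% of all protein-coding windows. The GC box, searched as GGGCGG, was in 72% of windows at lower sites and 50% at higher sites (interval 29.1 to 70.9%). It was in 74.1% of CpG-rich and 46.2% of all protein-coding windows. These differences were not tested. For the cyclic AMP response element (TGACGTCA), the intervals of both directions included the 3.72% of CpG-rich windows. For the ETS motif (CCGGAAG) they included the 19.7% of CpG-rich windows, and for the TATA box (TATAAA) the 5.58%. The intervals of the NRF1 motif, a palindrome, included the 2.59% of CpG-rich windows. The AP-1 motif (TGAGTCA) was in none of the windows of either direction, which allows a share of up to 3.62% at lower sites. It was in 2.47% of CpG-rich and 4.66% of all protein-coding windows.

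The median log2 ratio was -0.95 over the 223 lower sites and 0.88 over the 62 higher sites, against -1.07 and 0.93 over all 480 lower and 476 higher listed sites. Single sites ran from -2.37 to -0.26 and from 0.33 to 1.84. At lower sites the median normalized count was 27.9 with saline and 13.2 with cocaine, and at higher sites 14.1 and 28.8. The lower sites were low in every cocaine library. Medians of the ratio to the saline mean lay between -1.13 and -0.88 in the 6 cocaine libraries and between -0.12 and 0.13 in the 4 saline libraries. The higher sites were less even. There the medians were between 0.55 and 0.61 in cocaine libraries 1 to 3, 0.86 in library 4, and 1.41 and 1.17 in libraries 5 and 6.

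**Figure D2:**
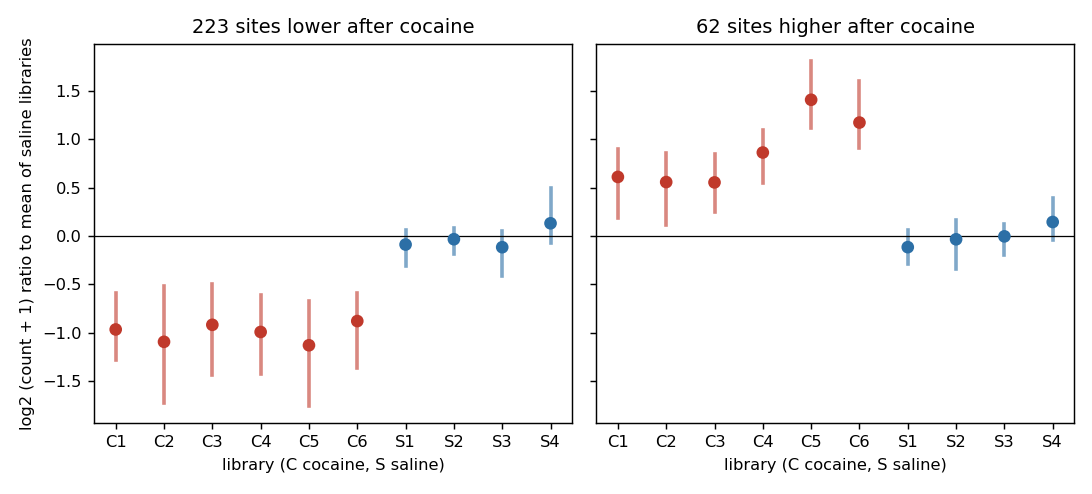
Median over sites (points) with the interquartile range (bars) of the log2 ratio of each library's normalized count to the mean of the saline libraries, for the 223 lower sites (left) and the 62 higher sites (right), with cocaine libraries in red and saline libraries in blue. At lower sites the 6 cocaine medians lie between -1.13 and -0.88, while at higher sites libraries C5 and C6 stand at 1.41 and 1.17, above the other 4.

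Cocaine libraries 5 and 6 thus stood apart at higher sites, and the reason was not tested. They had the largest steps among cocaine libraries (2.21 and 1.71) and the fewest median reads per promoter site (7 and 11). They held the top 2 of all values at 30 of the 62 higher promoter sites (48.4%), against 79.3% of higher gene body sites, 74.6% of higher distal sites and 91.3% of the higher promoter sites left out for lying in runs. Without them the median over higher promoter sites was 0.68, while over all listed higher sites it was 0.34. A 1.5-fold difference in the site's own direction was present at 201 of 223 lower sites (90.1%, background over all listed lower sites 95%) and 61 of 62 higher sites (98.4%, background 97.9%). Leaving out libraries 5 and 6, the same count was 179 lower (80.3%, background 87.7%) and 42 higher (67.7%, background 31.3%). Direction was kept at all but 2 sites, Ppm1b (-0.27 to 0.02) and Vmn1r48 (0.62 to -0.22). The 6 cocaine and 4 saline values did not overlap at 111 lower sites (49.8%, background 47.5%) and at 18 higher sites (29.0%, background 11.3%). In limma on log2 values over all 956 sites, with Benjamini-Hochberg adjustment, 105 of the 223 lower sites and 15 of the 62 higher sites had an adjusted p below 0.05. The background was 291 of all 480 listed lower sites (60.6%) and 62 of all 476 listed higher sites (13%). All 956 sites had been listed for differing between these same libraries, so these calls describe the spread between libraries and are no separate evidence of a difference. The smallest adjusted p was 0.0437, so these calls sit at the threshold, and leaving out cocaine library 3 or any saline library left 0 limma calls, while 113 to 153 lower and 19 to 39 higher sites then had an unadjusted p below 0.05.

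**Figure D3:**
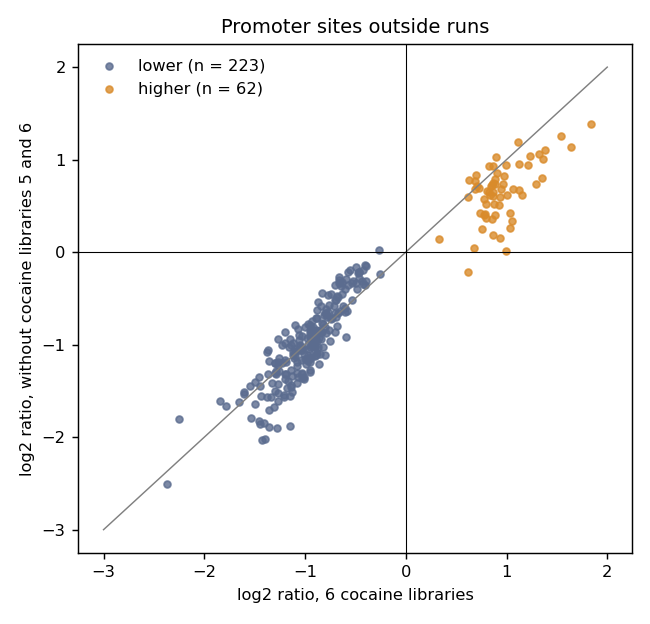
Log2 ratio of cocaine to saline at each promoter site with all 6 cocaine libraries (x axis) and without cocaine libraries 5 and 6 (y axis), with the line of equality in grey, 223 lower sites in blue-grey and 62 higher sites in orange. Most higher sites fall below the line, Vmn1r48 drops to -0.22, and the lower sites scatter around it.

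Sorted by what the nearest gene is best known for, the largest class was transcription and chromatin, with 47 lower and 9 higher sites. RNA processing and translation had 20 and 9, GTPases and the cytoskeleton 20 and 5, transporters and metabolism 20 and 7, kinases, phosphatases and second messengers 16 and 2, synapse, channels and receptors 14 and 2, and membrane traffic 13 and 5. DNA replication, repair and cell cycle had 10 lower and 3 higher sites, ubiquitin and protein turnover 10 and 4, and mitochondria 9 and 0. Non-coding or unnamed loci had 17 and 6, genes of other functions 15 and 4, unclassed genes 11 and 6, and adhesion 1 and 0. The share of lower sites ran from 64.7% (unclassed) to 100% (mitochondria, and the single adhesion gene Tns2) around the 78.2% of all promoter sites. The classes were assigned by hand after the gene names were seen, and no class was tested against the rest.

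**Figure D4:**
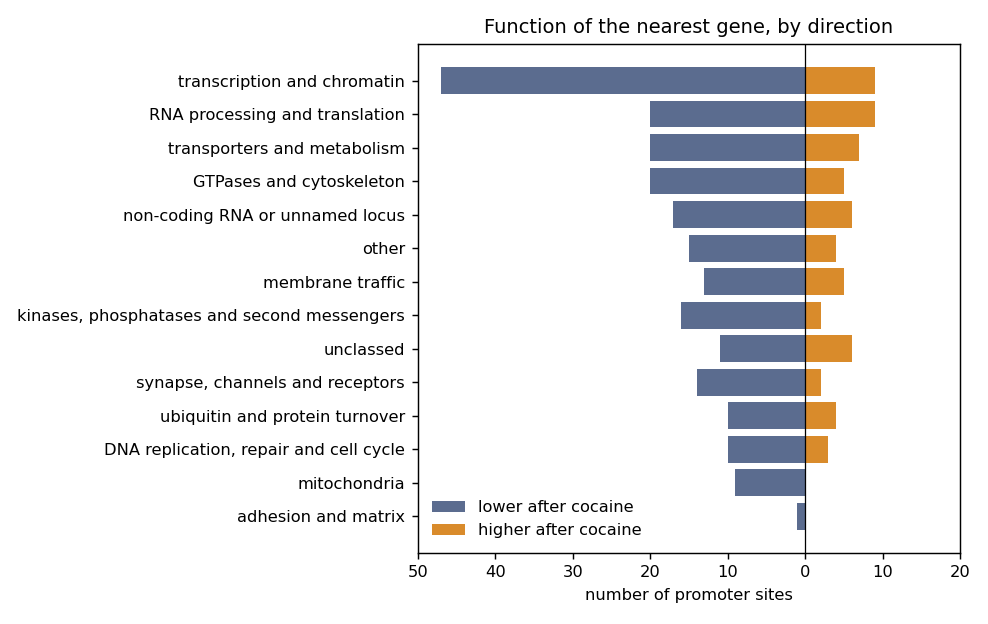
Number of promoter sites (x axis) by function class of the nearest gene (y axis), lower after cocaine to the left in blue-grey and higher to the right in orange. Transcription and chromatin is the largest class with 47 lower and 9 higher sites, and mitochondria has 9 lower and 0 higher.

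Among chromatin genes, 8 of a list of 140 regulators (5.71%) had a lower site (Brd2, Hdac4, Kat6b, Auts2, Arid1a, Dnmt3a, Sin3a and Hdac10) and 1 (0.714%) a higher site (Hdac9). Of 21900 protein-coding genes in RefSeq, 195 (0.89%) had a lower and 53 (0.242%) a higher promoter site. Neither the list's shares nor its split between directions was tested against these, and 78.2% of all promoter sites were lower. Brd2, a bromodomain protein that reads acetylated histones, had 133, 115, 134 and 143 in the saline libraries and ran from 80.4 to 112 with a median of 100.2 in the cocaine libraries (chr17:34119502-34120500). Every cocaine value was below every saline value, the log2 ratio was -0.41, and the authors' deposited table gave the adjusted p of 2.5e-06. The enrichment in the authors' deposited table did not go lower at Brd2, at 3.93 with cocaine and 3.88 with saline. Hdac4, a class IIa histone deacetylase that shuttles between cytoplasm and nucleus, had 27.2, 21.6, 31.5 and 26.3 with saline and ran from 4.16 to 19.9 with a median of 11.2 with cocaine (chr1:92178302-92179500). The groups did not overlap and the log2 ratio was -1.15, and -1.56 without cocaine libraries 5 and 6. Kat6b, a histone acetyltransferase, stood at 9.23, 16.5, 11.9 and 26.3 with saline and ran from 0 to 8.32 with a median of 6.34 with cocaine, again without overlap, a log2 ratio of -1.54. Auts2, which in neurons works with a Polycomb complex, had 16.3, 21.6, 20.7 and 50.7 with saline, where library 4 stood alone, and ran from 6.84 to 19.9 with a median of 10.4 with cocaine. Those groups overlapped, and the log2 ratio of -1.20 became -0.73 without saline library 4. In the opposite direction Hdac9, another class IIa deacetylase, had 9.23, 10.8, 9.59 and 15.03 with saline and ran from 12.1 to 39.8 with a median of 20.4 with cocaine. Its groups overlapped, with a log2 ratio of 0.92 that was 0.50 without libraries 5 and 6.

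Of the 9 higher chromatin and transcription sites, those at Smarcd3 and Hey1 did not overlap between groups (22.2%, background 11.3%). Smarcd3, a subunit of the BAF chromatin remodeller, had 8.69, 3.18, 10.4 and 11.3 with saline and ran from 11.4 to 42.04 with a median of 14.5 with cocaine, a log2 ratio of 1.16 (0.62 without libraries 5 and 6). Hey1, a transcriptional repressor downstream of Notch, had 8.15, 12.1, 12.3 and 11.3 with saline and ran from 13.5 to 28.8 with a median of 22.98 with cocaine, a log2 ratio of 0.98 (0.82). Sp140l2, a relative of the SP140 nuclear body proteins, had 10.3, 11.4, 11.9 and 16.9 with saline and ran from 10.4 to 104 with a median of 35.3 with cocaine, where library 5 alone stood at the top, a log2 ratio of 1.64 (1.14 without libraries 5 and 6). At the Dux locus, a tandem array of homeobox genes, Dux site 1 had 229, 184, 268 and 308 with saline and ran from 157 to 1007 with a median of 377 with cocaine. Cocaine libraries 1 to 3 lay within or below the saline range there, and the log2 ratio of 0.94 was 0.15 without libraries 5 and 6. Dux site 2 and Duxf4 went from 1.00 to 0.61 and from 0.87 to 0.18. How reads that match several copies of the array were placed is not stated in the labels or headers.

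Several transcription factors had 2 lower sites each. Bcl11a, a zinc finger repressor of developing neurons, was the only member from a list of 71 medium spiny neuron and dopamine signalling genes. That was 1.41% of the list, against 0.89% of all protein-coding genes with a lower promoter site. Bcl11a site 1 had 26.1, 34.97, 28.8 and 39.5 with saline and ran from 11.97 to 21.1 with a median of 17.2 with cocaine, without overlap. Bcl11a site 2 had 23.9, 17.2, 22.2 and 48.9 and ran from 10.1 to 22.1 with a median of 15.4, and its log2 ratio of -0.83 was -0.43 without saline library 4. Both Bcl11a sites lay within 1 kb of a start (chr11:24076502-24077500 and chr11:24078302-24079300). Klf13, a Krüppel-like factor, had log2 ratios of -1.45 and -0.93, and neither site overlapped between groups. Sp1, which binds GC boxes, had -0.49 and -0.77, with overlap at both. Sp1 site 1 was 121, 125, 132 and 126 with saline and ran from 42.04 to 135 with a median of 97.9 with cocaine, and only -0.16 on the log2 scale without libraries 5 and 6. Tnrc18 and Zfp740, both encoding nuclear proteins, differed in size of effect. At Tnrc18 the counts were 80.9, 76.9, 88.2 and 77.04 with saline and ran from 59.3 to 76.5 with a median of 65.9 with cocaine, a log2 ratio of -0.26, and at Zfp740 the log2 ratio was -1.60. Neither overlapped between groups.

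Sites at 6 core histone genes had lower counts with cocaine, where 78.2% of all promoter sites did, and the group was put together after values were seen. Core histones package DNA, and replication-dependent copies are classical S-phase genes. H4c8 had 217, 214, 213 and 224 with saline and ran from 122 to 194 with a median of 152 with cocaine, without overlap, a log2 ratio of -0.48. H2ac25 had 267, 292, 297 and 321 with saline and ran from 84.1 to 282 with a median of 227 with cocaine, with overlap and an adjusted p of 0.21 in the authors' deposited table, a log2 ratio of -0.47 and -0.23 without libraries 5 and 6. H3f4 (-0.94) and H2bc3 (-0.60) did not overlap between groups, while H3c6 (-0.66) and H2ac15 (-0.43) did. H2ac15 shares its site with the window of H2bc15, so a single site can belong to either gene.

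For RNA processing, 5 of a list of splicing and processing factors, 126 of which are in RefSeq, had a lower site (Pan2, Celf2, Qki, Hnrnpul2 and Celf6), or 3.94%, and 1 a higher site (Smg5), or 0.787%, against the 0.89% and 0.242% of all protein-coding genes. Pan2, the catalytic subunit of a poly(A)-shortening enzyme, had 62.5, 68.7, 69.5 and 62.01 with saline and ran from 33.2 to 59.4 with a median of 50.02 with cocaine (chr10:128302702-128303700). The groups did not overlap, and the log2 ratio was -0.43. Celf2, a splicing regulator in brain, had 34.8, 40.7, 19.9 and 52.6 with saline and ran from 8.34 to 23.9 with a median of 12.4 with cocaine, overlapping, a log2 ratio of -1.27. Qki, an RNA-binding protein of glia and myelination, had 52.1, 46.4, 41.4 and 95.8 with saline and ran from 27.2 to 36.3 with a median of 32.4 with cocaine. Its groups did not overlap, though the log2 ratio of -0.84 was -0.51 without saline library 4. Hnrnpul2 had 121, 121, 120.1 and 111 with saline and ran from 17.7 to 121 with a median of 98.98 with cocaine. Its log2 ratio of -0.53 was -0.31 without libraries 5 and 6, where libraries 4 and 5 had been lowest. Its site overlapped a start window of Ttc9c and not its own.

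Smg5, which helps degrade messages with premature stop codons, had the largest log2 ratio of the 62 higher sites. It stood at 4.35, 2.54, 3.84 and 7.52 with saline and ran from 10.3 to 35.4 with a median of 16.5 with cocaine (chr3:88360102-88361100, covering the start), without overlap. The log2 ratio was 1.84, and 1.39 without libraries 5 and 6. In reads the site was small, with 11 to 18 per cocaine library and 4 to 10 per saline library. Abcf1, a translation factor of the ABC family, had 16.8, 17.2, 24.9 and 7.52 with saline and ran from 27.2 to 41.7 with a median of 33.6 with cocaine, without overlap. Its log2 ratio of 1.00 was 0.94 without libraries 5 and 6, the pair adding little there. Zc3h7a ran from 77.8 to 242 with a median of 193 with cocaine against 105, 122, 82.9 and 90.2 with saline, and its groups overlapped.

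Of a synaptic and membrane signalling list, 6 genes (4.03%) had a lower site, against 0.89% of all protein-coding genes, and 0 had a higher site, against 0.242%. With 78.2% of all promoter sites lower, the split of 6 and 0 is not read as particular to the list. Clstn1, which encodes calsyntenin-1, a transmembrane protein of synapses and axonal transport, had 14.1, 13.99, 13.8 and 22.6 with saline and ran from 0 to 8.34 with a median of 1.00 with cocaine (chr4:149584302-149585500). There were no reads in 3 cocaine libraries, no overlap between groups, and a log2 ratio of -2.25. Magi2, a postsynaptic scaffold, had 24.99, 14.6, 20.7 and 18.8 with saline and ran from 0 to 11.1 with a median of 6.37 with cocaine, and Gabrg1, the gamma-1 subunit of the GABA-A receptor, had 23.9, 18.4, 13.8 and 30.1 and ran from 0 to 13.3 with a median of 8.45. Neither overlapped, with log2 ratios of -1.55 and -1.46. Vamp2, the vesicle SNARE of neurotransmitter release, had 54.9, 52.8, 61.01 and 54.5 with saline and ran from 0 to 55.1 with a median of 33.1 with cocaine. Cocaine library 5 had no read at Vamp2, libraries 1 and 2 reached the saline range or its edge, and the log2 ratio was -0.77 or -0.46 without libraries 5 and 6. The enrichment in the authors' deposited table pointed the other way at Vamp2, at 6.6 with cocaine and 2.31 with saline. Nrxn2 and Shank1, an adhesion molecule and a scaffold of the synapse, completed the list. Outside it Synj1, a phosphatase of vesicle recycling, had 21.2, 19.7, 18.4 and 26.3 with saline and ran from 2.01 to 12.97 with a median of 10.1 with cocaine without overlap, a log2 ratio of -1.18. On the higher side this class held Plxna4, a semaphorin receptor subunit (0.86), and the vomeronasal receptor gene Vmn1r48, described above. Of a list of 28 glial and vascular markers, none had a promoter site in either direction, where 0.89% and 0.242% of protein-coding genes did. That list does not hold Cnp, a myelin enzyme gene that marks oligodendrocytes, which was picked out here after its values were seen. Cnp had 13.6, 12.7, 16.9 and 24.4 with saline and ran from 25.1 to 44.5 with a median of 30.4 with cocaine, a higher site without overlap, at a log2 ratio of 0.87 (0.75 without libraries 5 and 6).

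Kinase genes included the promoter site with the lowest log2 ratio of the 285. Slk, a STE20-type kinase, had 11.9, 12.7, 9.98 and 24.4 with saline and ran from 0 to 6.48 with a median of 0.32 with cocaine (chr19:47621802-47623000, covering the start). In reads this was 0 to 5 per cocaine library and 13 to 26 per saline library, the groups did not overlap, and the log2 ratio was -2.37. Sik1, a kinase induced by neuronal activity, had 45.1, 49.6, 42.6 and 43.2 with saline and ran from 10.1 to 33.7 with a median of 25.4 with cocaine, without overlap, a log2 ratio of -0.93. Sik1 and Rheb were the 2 lower genes of a list of 49 activity-regulated genes, of which none had a higher site (4.08% and 0%, against 0.89% and 0.242% of protein-coding genes). Rheb, the GTPase that switches on the mTOR kinase, had 129, 118, 126 and 109 with saline and ran from 42.04 to 132 with a median of 91.6 with cocaine. Cocaine library 1 lay above every saline library at Rheb, and the log2 ratio was -0.40. Nek1, a kinase of cilia and DNA repair, had 61.4, 54.7, 65.99 and 56.4 with saline and ran from 30.8 to 53.2 with a median of 44.9 with cocaine, a small difference without overlap (-0.43). Ppp4r3b, a regulatory subunit of protein phosphatase 4, had a log2 ratio of -1.50, also without overlap. The higher kinase sites were at Dclk1 (0.87, or 0.53 without libraries 5 and 6) and Map3k2 (0.81, 0.66), and both overlapped.

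Transporter and metabolic genes had 7 higher sites, of which 6 (85.7%) did not overlap between groups, where the background was 11.3% and the share over all higher promoter sites 29.0%. The class was formed by hand after the gene names were seen, and this difference was not tested. Fasn, the fatty acid synthase gene, was the only gene with sites in opposite directions. Fasn site 1 (chr11:120821002-120822000, annotated 1 to 2 kb from a start) had 5.97, 8.27, 7.29 and 7.52 with saline and ran from 12.1 to 28.8 with a median of 20.00 with cocaine, a log2 ratio of 1.38. Fasn site 2 (chr11:120823602-120824600, within 1 kb of the start) had 51.1, 45.1, 41.05 and 43.2 with saline and ran from 11.1 to 40.6 with a median of 23.8 with cocaine, a log2 ratio of -0.76. Neither site overlapped between groups, and without libraries 5 and 6 the ratios were 1.10 and -0.57. Slc2a5, the fructose transporter, had 23.4, 15.3, 16.1 and 11.3 with saline and ran from 27.04 to 48.7 with a median of 37.7 with cocaine, without overlap (1.12). Slc35e4, a putative sugar-nucleotide carrier, had 2.72, 10.2, 11.1 and 9.4 with saline and ran from 12.5 to 35.9 with a median of 21.9 with cocaine, also apart (1.36). Sgpp1, which removes the phosphate of sphingosine 1-phosphate, had 13.6, 11.4, 11.1 and 5.64 and ran from 14.6 to 35.9 with a median of 27.2, a log2 ratio of 1.23.

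On the lower side of metabolism, Slc4a2, an anion exchanger, had 27.7, 41.3, 33.8 and 39.5 with saline and ran from 7.04 to 20.8 with a median of 13.7 with cocaine, without overlap (-1.30). Scd2, a fatty acid desaturase of brain, had 30.4, 33.7, 31.5 and 39.5 with saline and ran from 3.42 to 25.6 with a median of 13.8 with cocaine, without overlap (-1.20). Acot13, a thioesterase, had a log2 ratio of -1.61, with overlap. The 9 sites at mitochondrial genes were lower, where 78.2% of all promoter sites were, and 4 of them (44.4%) did not overlap, near the background of 47.5%. Ndufa7, a subunit of respiratory complex I, had 20.1, 17.2, 18.03 and 30.1 with saline and ran from 3.42 to 13.3 with a median of 4.61 with cocaine, a log2 ratio of -1.50. Chchd5 had 54.3, 48.96, 53.3 and 50.7 with saline and ran from 13.3 to 47.5 with a median of 24.3 with cocaine, a log2 ratio of -0.88. Abhd11 was among the strongest sites, at 196, 179, 186 and 188 with saline, and ran from 50.9 to 211 with a median of 138 with cocaine. Its groups overlapped and its log2 ratio of -0.40 was -0.14 without libraries 5 and 6.

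Protein turnover and traffic genes went both ways. Hspa4, a heat shock protein 110-type chaperone, had 7.06, 9.54, 9.98 and 1.88 with saline and ran from 10.3 to 35.4 with a median of 22.5 with cocaine, without overlap, a log2 ratio of 1.54. Senp7, which removes SUMO, had 19.01, 10.8, 19.2 and 20.7 with saline and ran from 17.7 to 50.3 with a median of 32.00 with cocaine, and Pias1, which attaches it, had 23.9, 30.5, 23.02 and 28.2 and ran from 15.6 to 68.4 with a median of 41.5. Those groups overlapped, with log2 ratios of 0.90 and 0.69 that were larger, at 1.03 and 0.77, without libraries 5 and 6. Lower turnover sites were at Cst3, the protease inhibitor cystatin C (-1.27), Fem1b, a ubiquitin ligase receptor (-1.27), and Dcun1d4 (-1.12), none overlapping. Among traffic genes, Lamp1, a lysosomal membrane protein, had 19.6, 14.6, 11.1 and 15.03 with saline and ran from 20.1 to 47.9 with a median of 25.8 with cocaine, and Ap3b2, the neuronal subunit of the AP-3 coat, had 10.9, 9.54, 20.7 and 13.2 and ran from 21.8 to 44.1 with a median of 27.9. Both were higher without overlap (0.93 and 1.12). Snx5, a sorting nexin, had 11.4, 12.7, 11.5 and 20.7 with saline and ran from 0 to 8.34 with a median of 2.21 with cocaine, a lower site without overlap (-1.84). Stx6, a SNARE of the trans-Golgi, was lower at -1.01, or -0.77 without saline library 4.

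**Figure D5:**
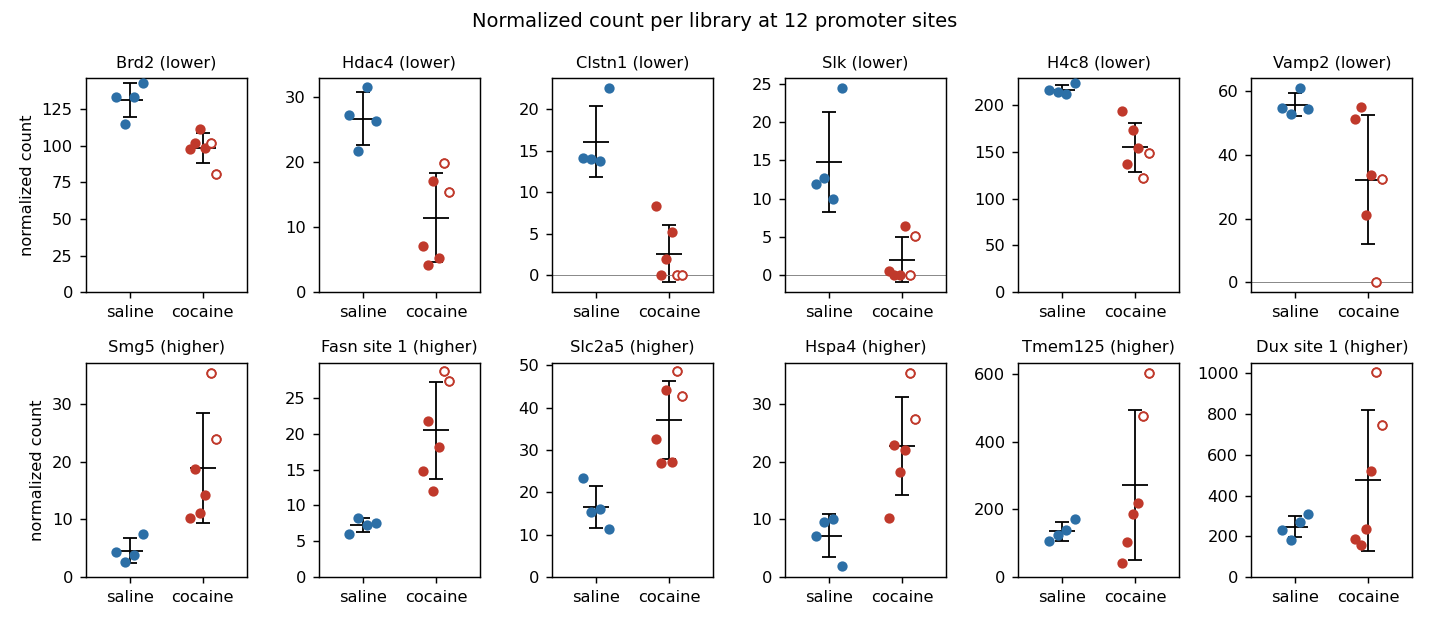
Normalized count (y axis, own scale per panel) in each saline library (blue) and cocaine library (red, with libraries 5 and 6 as open circles) at 6 lower sites (top row) and 6 higher sites (bottom row), with mean and SD in black. The groups are apart at Brd2, Hdac4, Clstn1, Slk, H4c8, Smg5, Fasn site 1, Slc2a5 and Hspa4 and overlap at Vamp2, Tmem125 and Dux site 1, where the open circles lie highest at Tmem125 and Dux site 1.

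Genes of DNA replication, repair and cell cycle, Cdc6 included, had 10 lower and 3 higher sites, and their share of lower sites (76.9%) was close to the 78.2% of all promoter sites. Bub3, a spindle checkpoint protein, had 39.6, 49.6, 46.4 and 46.98 with saline and ran from 11.1 to 41.04 with a median of 23.6 with cocaine, overlapping through library 6 (-0.90). Ccng2, an unusual cyclin linked to cell cycle arrest, had 52.1, 64.9, 63.7 and 60.1 with saline and ran from 4.43 to 51.3 with a median of 39.98 with cocaine, where library 5 alone was near 0. Its log2 ratio of -0.74 was -0.45 without libraries 5 and 6. Ercc4, a DNA repair endonuclease, had 35.3, 33.7, 35.7 and 35.7 with saline and ran from 6.48 to 34.2 with a median of 18.3 with cocaine, overlapping (-0.85). Higher sites were at Wapl, which releases cohesin from DNA (1.03, or 0.42 without libraries 5 and 6), Cenpo, a kinetochore protein (0.78, 0.40), and Ercc6l2 (0.83, 0.65). Of these Ercc6l2 alone did not overlap between groups, though its enrichment in the authors' deposited table pointed the other way, at 1.86 with cocaine and 2.38 with saline.

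Tmem125, of unclassed function, was the named higher site whose log2 ratio moved most without libraries 5 and 6. It stood at 105.9, 123, 140.4 and 173 with saline and ran from 41.7 to 605 with a median of 201 with cocaine, where libraries 1 and 2 lay below every saline library and 5 and 6 far above. The log2 ratio went from 1.00 to 0.01.

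GTPase and cytoskeletal genes had 20 lower sites, 8 of them (40%, background 47.5%) without overlap, and 5 higher sites, 0 of them (background 11.3%) without overlap. Actn2, an actin crosslinker of dendritic spines and muscle, had 12.5, 14.6, 19.2 and 20.7 with saline and ran from 2.08 to 11.97 with a median of 5.62 with cocaine (-1.29). Dbnl, which links actin to endocytosis, had 24.99, 22.9, 16.5 and 24.4 with saline and ran from 2.21 to 14.3 with a median of 9.61 with cocaine (-1.27), and Rangap1, the activator of Ran's GTPase, had 24.4, 23.5, 24.2 and 18.8 and ran from 5.2 to 18.1 with a median of 10.1 (-0.98). Cyria, a regulator of Rac signalling to actin, was higher, at 12.5, 13.99, 11.1 and 7.52 with saline and ranging from 10.4 to 43.3 with a median of 32.4 with cocaine, where library 2 lay within the saline range (1.32).

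Non-coding loci had 17 lower and 6 higher sites, and 5 of the lower sites were annotated to miRNA genes (Mir132, Mir135b, Mir99a, Mir5627 and Mir3061). The mature sequences are shown for 3 of these genes, with the seed, bases 2 to 8 that pair with targets, in capitals. RefSeq (GRCm38.p6) supplied the sequences, for Mir135b the 3p one alone, and the 5 seeds shown all differ.
mmu-miR-132-5p: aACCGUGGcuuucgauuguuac
mmu-miR-132-3p: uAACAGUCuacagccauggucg
mmu-miR-99a-5p: aACCCGUAgauccgaucuugug
mmu-miR-99a-3p: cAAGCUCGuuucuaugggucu
mmu-miR-135b-3p: aUGUAGGGcuaaaagccauggg
The Mir132 site (chr11:75173102-75174700) contained the miR-132 sequence itself, at chr11:75173686-75173744 on the plus strand. Mir132, an activity-regulated miRNA of neurons, had 52.7, 60.4, 51.03 and 60.1 with saline and ran from 22.1 to 43.7 with a median of 29.7 with cocaine. The groups did not overlap and the log2 ratio was -0.80; Mir132 and Mir99a were picked out after their values were seen. Mir135b had 22.8, 25.4, 23.4 and 31.9 with saline and ran from 4.16 to 19.9 with a median of 11.8 with cocaine, without overlap (-1.14), and Mir99a had 20.1, 27.3, 16.1 and 39.5 and ran from 6.48 to 19.9 with a median of 10.98, with overlap (-1.03). These 2 sites lay 2 to 3 kb from the annotated start. At Gt(ROSA)26Sor, the ubiquitously transcribed Rosa26 locus, the site had 67.3, 70.6, 67.9 and 80.8 with saline and ran from 24.6 to 48.7 with a median of 43.8 with cocaine, without overlap (-0.80). Rn45s, the ribosomal RNA precursor repeat, had the highest counts of the 285 sites, 1726, 1730.2, 1724 and 1558 with saline, and ran from 1656 to 3199 with a median of 2029 with cocaine, overlapping and with a log2 ratio of 0.33. Reads of such repeats cannot be assigned to a single copy.

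Most of these sites carried no peak of the authors' pooled lists. A cocaine peak lay on 32 lower sites (14.3%) and 13 higher sites (20.97%), with any overlap of at least 1 base, where the shares over all listed sites were 7.71% and 29.2%. A saline peak lay on 15 (6.73%) and 5 (8.06%), against 3.75% and 9.45%. These differences were not tested. Among lower sites, 9 carried a peak of both lists and 185 of neither. The cocaine list holds 3467 peaks and the saline list 725. In the authors' deposited table, the median enrichment over a background that is not defined there was 1.34 with cocaine and 2.57 with saline at lower sites, and 2.18 and 1.14 at higher sites. This enrichment pointed in the opposite direction to the normalized counts, or tied, at 28 lower and 2 higher sites. It pointed the same way at 87.4% of lower and 96.8% of higher sites, against 91.0% and 88.4% over all listed sites. Besides Vamp2 and Brd2, the opposed lower sites named above included Nek1, Rheb, Abhd11, Hnrnpul2, Ppm1b and Sp1 site 1. The 2 higher sites were Ercc6l2 and Pisd-ps2.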

How the data were processed

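E2F3a CUT&RUN was done on nuclei of mouse nucleus accumbens, and the genome build was mm10, per the submitters' processing notes. The authors deposited a diffReps table of cocaine against saline (negative binomial test, both sexes, per the file headers and name) with normalized counts per library joined within a cell, their group means as a signal, an enrichment ratio, a log2 fold change and an adjusted p-value. They also deposited peaks called with MACS on pooled libraries of each treatment, with a fold enrichment ratio and a −log10 q, per the file format and the peak names. Aligner, window, normalization and control settings are not stated in the labels or headers, and normalization to a total makes values relative.

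From these values, sites were sorted by position (pandas 2.3.3), runs removed, and ratios taken on log2 with a pseudocount of 1. limma 3.58.1 in R 4.3.3 was fitted to log2(normalized count + 1) over all 956 sites with 6 cocaine and 4 saline values. It was tried on simulated data whose changes were larger than the median change here. That trial does not show how well it calls these sites. No filter on low values was applied, so all 285 sites entered every count. Whole reads were recovered from the steps (100% of values up to 20 reads were whole within 0.1 of a step). Of 21 pairs of libraries within a group, 0 were identical. Of 285 sites, 229 had their annotated gene in the RefSeq window table, matched by gene identifier.

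The sites named are, per direction, those with the largest ratio among sites without overlap and with a mean of at least 10, the smallest authors' adjusted p, the highest counts, several sites in a gene, membership of 7 gene lists, or the smallest p in a function class. Members, lists and classes were chosen with earlier results of these data known. Alternatives covered thresholds, distance, run limits, pseudocounts, scaling and left-out libraries. Of the IgG libraries, 2 bear conflicting treatment labels and were put in no group, and no IgG library was analysed here.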

Additional observations from a re-analysis of the deposited data

Results flagged for a closer look

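In 17 of 214 groups of libraries tested (7.94%), a single library stood away from the others of its group by Dixon's 95% limit. About 1 in 20 would do so if the libraries of a group varied alike. That rate is no strict standard here. What 1 read was worth differed between libraries, and the sites share libraries and were partly named for their values. Saline library 4 accounted for 10 of the 17, as the highest value at 7 sites and the lowest at 3.

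It was highest at Tns2 (47.0, others 13.04 to 16.9), Pisd-ps2 (65.8, others 47.7 to 50.6), Snx5 (20.7, others 11.4 to 12.7), Clstn1 (22.6, others 13.8 to 14.1), Auts2 (50.7, others 16.3 to 21.6), Fem1b (31.9, others 19.7 to 21.7) and Manf (39.5, others 11.4 to 14.1). It was lowest at Rangap1 (18.8, others 23.5 to 24.4), Hnrnpul2 (110.9, others 120.1 to 120.8) and Rn45s (1558, others 1724 to 1730). Saline library 3 was lowest at Gm18409 (21.1, others 33.7 to 35.7) and saline library 2 at Senp7 (10.8, others 19.0 to 20.7).

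Among cocaine libraries, number 5 was highest at Sp140l2 (104.0, others 10.4 to 43.3) and Auts2 (19.9, others 6.84 to 11.5) and lowest at Rab40c (30.98, others 121.9 to 166.4) and Ccng2 (4.43, others 34.2 to 51.3). Number 6 was highest at Rn45s (3199, others 1656 to 2142). All values are normalized counts. What sets these libraries apart was not tested. One read was worth 1.88 normalized counts in saline library 4 and 2.21 in cocaine library 5, the largest steps of their groups.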

How the results depend on the processing

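No paired analysis was possible because the library values carry no names, so replicate numbers cannot be tied to them. The planned edgeR test was not run, since the deposited values are normalized counts, and a quasi-Poisson model on recovered reads, chosen after seeing the data, took its place. Both models were fitted to sites listed for differing between the same libraries, so their calls are no separate evidence. With limma 105 of 223 lower and 15 of 62 higher promoter sites had an adjusted p below 0.05. Over all listed sites these were 291 of 480 and 62 of 476. The quasi-Poisson model called 144 and 33 promoter sites, against 338 of 480 and 80 of 476 over all listed sites. At an unadjusted p below 0.05 limma gave 170 and 36 promoter sites. The unadjusted counts here were not taken over all listed sites. Leaving out 1 library at a time, limma called 0 to 121 lower and 0 to 24 higher sites, with 0 in both directions without cocaine library 3 or any saline library, where 113 to 153 lower and 19 to 39 higher sites still had an unadjusted p below 0.05. It called 10 and 3 without cocaine library 1 (38 and 18 over all listed sites), and 1 and 0 without library 4 (2 and 0). Dividing by the library median gave 44 limma calls among the 62 higher promoter sites, against 196 of all 476 listed higher sites. With no run removed, 108 sites were higher. The other run limits, the authors' enrichment as direction, and the adjusted p or distance limits kept both counts within 1.5 times. The median over lower sites was -0.78 with a pseudocount of 5 and -0.85 after dividing by the library median, and -1.0005 to -0.854 leaving out single libraries. The median over higher sites was 0.76 to 0.96. Non-overlapping sites numbered 114 to 136 lower and 18 to 24 higher, a count that leaving out a library can only keep or raise. Without cocaine libraries 5 and 6 it was 148 lower (66.4%) and 21 higher (33.9%), against 66.7% and 12.8% over all listed sites. Sites 1.5-fold apart numbered 185 to 207 and 52 to 60 leaving out single libraries. For single left-out libraries, neither count was taken over all listed sites. The E2F core was in 18% and 16.7% of windows. With at least 50% of the site covered, cocaine peaks lay on 9 lower and 6 higher sites and saline peaks on 2 and 3. Of 1365 values of named sites under alternatives, 2 turned sign, both without cocaine libraries 5 and 6, Ppm1b at 0.021 and Vmn1r48 at -0.22. Without that pair, Dux site 1, Duxf4, Gm9732, Pisd-ps2, Tmem125 and Wapl moved by over 1.5 times, to 0.15, 0.18, 0.26, 0.05, 0.01 and 0.42, and Fam135a to -2.03. Without saline library 4, Fam135a was at -0.52, Manf at -1.07 and Tns2 at -0.61. The cause was not tested in any of these cases.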
